A study of Mus musculus with 5 samples.

Results

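Effector CD4 T cells were taken from cluster 1 of the 17 clusters that the authors drew over CD45+ immune cells of the mouse thyroid. A cell of cluster 1 was counted as a CD4 effector cell when it held at least 1 unique molecular identifier (UMI, 1 counted transcript molecule) of the coreceptor gene Cd4 and none of Cd8a or Cd8b1. The cells were thus chosen by measured values, their cluster and their coreceptor UMIs, so their coreceptor levels are no finding. By this rule 570 of 10275 cells were CD4 effector cells, 560 of 8923 cells in libraries of mice given checkpoint antibodies and 10 of 1352 cells in the isotype library. Cluster 1 cells with at least 1 UMI of Cd8a or Cd8b1 and none of Cd4, here called CD8 effector cells, numbered 361 (346 and 15 in the same groups) and served for comparison.

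All mice were NOD.WT animals of both sexes, 4 to 6 weeks old when treatment began; NOD is a strain prone to autoimmune disease. The ICI group (immune checkpoint inhibition) received anti-PD-1 clone RPM1-14 together with anti-CTLA-4 clone 9D9 at 10 mg/kg a dose, and the isotype group received the control antibodies 2A3 and MPC11; both were injected intraperitoneally 2 times a week for 4 weeks. Thyroids were digested with collagenase after perfusion with PBS, live CD45+ cells were sorted, and 5' single-cell libraries were made on the 10x platform. Cells of 16 ICI mice went into 4 libraries (ICI 1 to ICI 4) and cells of 10 isotype mice into 1. The labels do not say which mice went into which library, so p-values here measure the spread between pooled libraries, which may in part be technical.

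CD4 helper T cells recognise peptides on class II molecules and act on other cells largely through surface ligands and secreted cytokines. CD40 ligand (Cd40lg) activates B cells, dendritic cells and macrophages, while interferon-gamma (Ifng), the hallmark cytokine of type 1 helper cells, is driven by the transcription factor T-bet (Tbx21). CXCR3 is the receptor for interferon-induced chemokines, and Fas ligand (Fasl) kills cells that carry Fas. Inflammation of the thyroid is a known adverse effect of antibodies against PD-1 and CTLA-4.

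CD4 effector cells numbered 154, 137, 118 and 151 in ICI 1 to ICI 4, and 10 in isotype. They made up 10.1%, 11.2%, 10.1% and 3.01% of all cells in ICI 1 to ICI 4, against 0.740% in isotype (8.63% ± 3.78, SD, n = 4, in ICI). ICI 4 lay below the other ICI libraries and the isotype library lay below all 4, outside the exact Clopper-Pearson 95% intervals of each (lowest ICI interval 2.55% to 3.52%, isotype interval 0.355% to 1.36%), which cover counting error only. Depth and gate moved the share: with every cell thinned to 1000 UMIs it was 6.39%, 5.99%, 5.58% and 1.08% in ICI 1 to ICI 4, against 0.451% (6 cells) in isotype, and the intervals of ICI 4 (0.815% to 1.41%) and isotype (0.166% to 0.979%) then overlapped. With at least 2 coreceptor UMIs required, it was 3.35%, 5.99%, 6.28% and 1.69%, against 0.370% in isotype. By exact two-sided permutation over libraries p was 0.2, the smallest that 4 libraries against 1 allow. Without ICI 4 the ICI share was 10.5% ± 0.641 (SD, n = 3). Cluster 1 was drawn over cells of both treatments from genes that can themselves change with treatment, so the share describes how cells fell into that cluster.

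Within the cells assigned to either lineage in cluster 1, CD4 cells made up 75.9%, 57.1%, 52.9% and 62.9% in ICI 1 to ICI 4, against 40.0% (10 of 25 cells) in isotype. All 4 ICI libraries lay above isotype, but the isotype interval, 21.1% to 61.3%, covered the values of ICI 2 and ICI 3 (exact two-sided permutation, p = 0.4). Of all cells with Cd4 and without Cd8a or Cd8b1 UMIs in any cluster, 29.1%, 46.1%, 46.5% and 10.8% lay in cluster 1 in ICI 1 to ICI 4, against 5.62% in isotype. ICI 2 and ICI 3 were highest and ICI 4 again lay nearest to isotype.

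**Figure D1:**
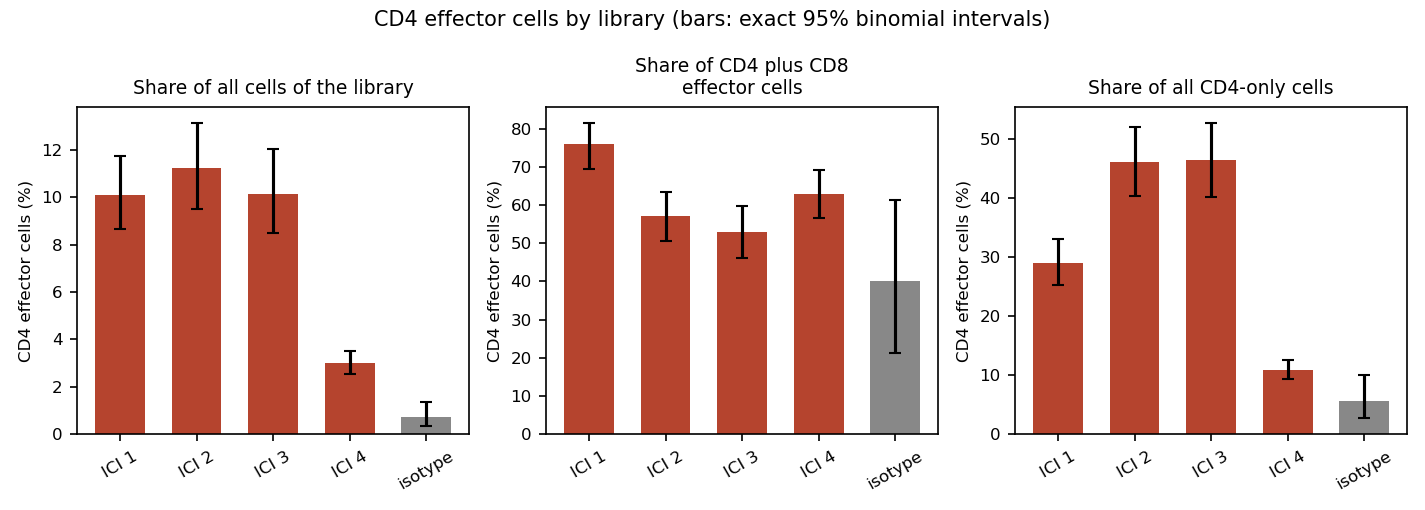
CD4 effector cells as a percent of all cells, of CD4 plus CD8 effector cells and of all CD4-only cells, by library; bars are libraries, lines are exact 95% intervals for counting error, and ICI libraries stand left of isotype. The ICI bars lie between 3.01% and 11.2% of all cells against 0.740% in isotype, with ICI 4 apart from ICI 1 to ICI 3.

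Depth differed between libraries. Median UMIs per CD4 effector cell were 1476, 2972, 3714 and 4117 in ICI 1 to ICI 4 and 3387 in isotype, and their summed UMIs were 322626, 431505, 450932, 745366 and 33140. The rule needs a transcript to be seen. In ICI 1, the shallowest library, 181 of 392 cluster 1 cells held no coreceptor UMI. The counts were 71 of 313, 45 of 270 and 64 of 323 in ICI 2 to ICI 4, and 13 of 45 in isotype. The part of depth in these counts was not tested. ICI 2 and ICI 3 shared 140 cell barcodes, of which 1 was a CD4 effector cell in both libraries; 12 of the 570 cells carried a barcode found anywhere in another library. ICI 4 was the library that stood apart in 29 of the 35 outlying values listed at the end, and it lay near isotype on some genes and far from it on others. It was titled ICI_nov21, unlike ICI 1 to ICI 3 (ICI_CD45pos_m1, m1a and m1b) and isotype (ISO). The labels name no batch, and the part of any batch in the differences was not tested.

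The label of these cells was first set against its markers, which carry no test here because the clusters were drawn from such genes. Of the 560 ICI cells, 514 (91.8%) held a UMI of at least 1 of Cd40lg, Ifng, Tbx21, Cxcr3 and Fasl, and 237 (42.3%) held at least 3 of these 5 genes; in isotype the counts were 9 and 4 of 10. Cd40lg was seen in 62.7% of ICI CD4 effector cells (median 3208 UMIs), 5.78% of ICI CD8 effector cells (median 3630 UMIs) and 0 of 144 ICI cells of the B-like cluster 14 (median 3732.5 UMIs), which allows a share of up to 2.08% of cells with a UMI (3 cells of 144, counting error only). Ifng was seen in 25.7%, 20.2% and 0.694% of the same populations, Tbx21 in 35.4%, 31.8% and 2.78%, Cxcr3 in 66.8%, 65.3% and 9.72%, and Fasl in 36.1%, 51.7% and 1.39%. Each of the 5 was seen more often than in B-like cells, and of the 5 only Cd40lg was seen in most CD4 effector cells and few CD8 effector cells. By library, Cd40lg was seen in 44.2%, 77.4%, 78.8% and 55.6% of CD4 effector cells of ICI 1 to ICI 4, against 50% of isotype cells; with every cell thinned to 1000 UMIs, which left out 24, 2, 3 and 0 ICI cells, the shares were 26.2%, 47.4%, 35.7% and 22.5%, against 40%. ICI 2 and ICI 3 stayed above the other ICI libraries and isotype lay inside the ICI range.

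Cells just inside and just outside the rule were alike in some of these readouts and not in others. The 278 ICI cells with exactly 1 Cd4 UMI held Cd40lg in 59.7% and the 282 cells with more held it in 65.6%, against 44.3% of the 361 cluster 1 cells with no coreceptor UMI (median 1962 UMIs). Klrd1, a receptor of killer cells, was seen in 5.04%, 4.61% and 4.71% of these populations. The 15 ICI cells with Cd4 and exactly 1 Cd8a or Cd8b1 UMI held Cd40lg in 53.3%.

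CD4 and CD8 effector cells of the same cluster were then compared across all genes, with UMIs summed per library and the library as a block; the 4 ICI libraries entered the fit. In such sums a smaller share of cells with a transcript and fewer transcripts per cell cannot be told apart. The lineage split used only the coreceptor genes, which were left out of all counts. A gene low in 1 lineage can pass the filter on low counts through the other lineage alone, so counts and medians over the tested members of a list are descriptions of those members. Of 5968 genes tested, 188 (3.15%) were higher and 142 (2.38%) were lower in CD4 cells at an adjusted p of 0.05 (edgeR's quasi-likelihood test with Benjamini-Hochberg adjustment), and the median log2 fold change of all genes was close to 0.

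Helper surface molecules led the genes that were higher in CD4 cells. Of 13 genes of helper surface ligands and receptors, 11 were tested, 7 were higher, none was lower, and their median log2 fold change was 0.93 (5 were higher by DESeq2, without Tnfsf11 and Cd28; without ICI 4, 7 were higher and 1 was lower). Cd40lg stood at 344.1, 662.8, 494.5 and 379.7 CPM (UMIs scaled to a common total for each sum of cells) in CD4 cells of ICI 1 to ICI 4, against 8.30, 44.4, 26.1 and 28.6 CPM in CD8 cells. The groups did not overlap, and the log2 fold change was 3.95 (SE 0.18; edgeR, Benjamini-Hochberg adjusted p = 7.62e-17). The isotype library, outside this fit, held 392.3 CPM in its 10 CD4 cells and none in its 15 CD8 cells.

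Tnfsf8 encodes CD30 ligand, a member of the tumour necrosis factor family. It had 65.1, 51.0, 24.4 and 287.1 CPM in CD4 cells of ICI 1 to ICI 4, against 8.30, 2.77, 7.10 and 18.4 CPM in CD8 cells (log2 fold change 3.59, SE 0.32; edgeR, Benjamini-Hochberg adjusted p = 5.81e-10). Tnfsf11, which encodes RANK ligand, a survival and maturation signal for dendritic cells and osteoclasts, had 74.4, 69.5, 48.8 and 322 CPM in CD4 cells and 58.1, 5.54, 0 and 53.1 CPM in CD8 cells (log2 fold change 2.55, SE 0.30). For both ligands ICI 4 was the highest CD4 library, and only for Tnfsf11 did the highest CD8 library lie above the lowest CD4 library.

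The costimulatory receptors split by lineage. Tnfrsf4, encoding OX40, had 120.9, 25.5, 33.3 and 731.2 CPM in CD4 cells of ICI 1 to ICI 4, against 33.2, 2.77, 0 and 114.4 CPM in CD8 cells (log2 fold change 2.71, SE 0.23). CD4 cells were higher in each library although the ranges overlapped, with ICI 4 high in both lineages. Of 14 costimulatory receptors 12 were tested: Tnfrsf4, Icos (log2 fold change 1.21), Slamf1 (1.32), Tnfrsf18 (0.86) and Cd28 (0.58) were higher, and Cd27 (-1.50) and Slamf7 (-0.90) were lower in CD4 cells. Cd5, which dampens receptor signalling, was also higher (0.93).

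The transcription factor Maf, which drives interleukin-10 and interleukin-21 in helper cells, varied little between ICI libraries. It had 207.7, 215.5, 241.7 and 210.6 CPM in CD4 cells of ICI 1 to ICI 4 (218.9 ± 15.6, SD, n = 4), against 66.4, 22.2, 16.6 and 18.4 CPM in CD8 cells (30.9 ± 23.8). The groups did not overlap (log2 fold change 3.16, SE 0.24; edgeR, Benjamini-Hochberg adjusted p = 7.84e-12). Zbtb7b, encoding ThPOK, the factor that fixes the CD4 lineage in the thymus, fell under the filter on low counts; it had 83.7, 85.8, 53.2 and 21.5 CPM in CD4 cells against 8.30, 22.2, 11.8 and 6.13 CPM in CD8 cells, higher in each library. Runx3, its counterpart in the CD8 lineage, had a log2 fold change of -0.05 (SE 0.14; edgeR, Benjamini-Hochberg adjusted p = 0.920), with 183 to 235 CPM in CD4 cells of ICI 1 to ICI 3 and 134 CPM in ICI 4, against 125 to 253 CPM in CD8 cells.

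Among genes past the threshold with at least 50 CPM in the higher lineage and the same direction in all 4 libraries, and with receptor segments set aside, the 12 largest increases in CD4 cells were in Cd40lg, St6galnac1, Tnfsf8, Maf, Ccr4, Podnl1, Tnfrsf4, Kctd12, Tnfsf11, Asb2, Fos and Ramp3. St6galnac1, a sialyltransferase, averaged 67.9 ± 25.8 CPM in CD4 cells and 4.63 ± 5.40 CPM in CD8 cells (SD, n = 4 each; log2 fold change 3.65, and 5.38 without ICI 4). Ccr4, a chemokine receptor of helper and regulatory cells, averaged 107.4 ± 44.4 CPM and 10.6 ± 9.75 CPM (2.95). Asb2, a subunit of a ubiquitin ligase, averaged 93.1 ± 36.5 CPM and 19.1 ± 10.1 CPM (2.29). All 4 libraries were higher in CD4 cells for each of these 3 genes.

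**Figure D2:**
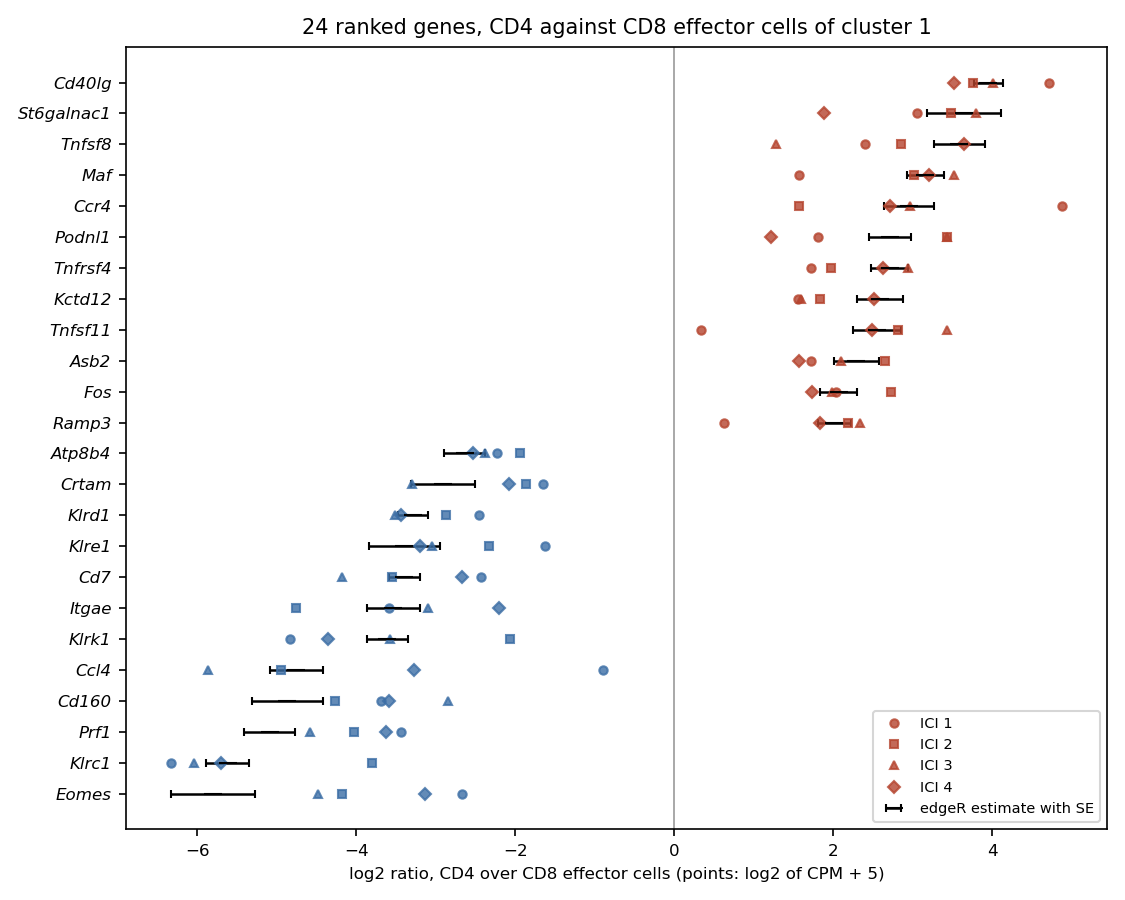
Log2 ratio of CD4 over CD8 effector cells for the 12 genes with the largest increase and the 12 with the largest decrease in CD4 cells; ticks with bars are edgeR estimates with 1 SE, and points are the 4 ICI libraries, as log2 of CPM plus 5. Cd40lg, at 3.95, is the largest increase, and Eomes, at -5.80, and Klrc1, at -5.62, are the largest decreases.

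The markers Ifng, Tbx21, Cxcr3 and Fasl differed less between the lineages than Cd40lg did. Ifng had 158.1, 352.3, 217.3 and 210.6 CPM in CD4 cells of ICI 1 to ICI 4, against 24.9, 116.4, 194.2 and 69.5 CPM in CD8 cells. CD4 cells were higher in each library, with overlapping ranges (log2 fold change 1.10, SE 0.20; edgeR, Benjamini-Hochberg adjusted p = 0.000255); with cells thinned to 1000 UMIs it no longer passed. Tbx21 had 208, 285, 166 and 80.5 CPM in CD4 cells and 133, 177, 142 and 79.7 CPM in CD8 cells, higher in CD4 cells of each library by differing amounts, which did not pass the test (0.33, SE 0.16; edgeR, Benjamini-Hochberg adjusted p = 0.301).

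Cxcr3 had 650.9, 769.4, 751.8 and 214.7 CPM in CD4 cells of ICI 1 to ICI 4, against 473.2, 551.6, 518.6 and 198.2 CPM in CD8 cells. It was higher in CD4 cells of each library but missed the threshold (log2 fold change 0.34, SE 0.11; edgeR, Benjamini-Hochberg adjusted p = 0.0803), with ICI 4 low in both lineages, and without ICI 4 it passed (0.40; edgeR, Benjamini-Hochberg adjusted p = 0.0430, against 0.0368 to 0.9999 over all alternatives). Fasl went the other way, with 184.6 ± 45.4 CPM in CD4 cells and 244.6 ± 73.5 CPM in CD8 cells (SD, n = 4 each; -0.49, SE 0.14; edgeR, Benjamini-Hochberg adjusted p = 0.0267); it no longer passed without ICI 2, without ICI 4, with ICI 2 and ICI 3 summed, with cells thinned to 1000 UMIs or by DESeq2. Of 19 genes of the type 1 programme 16 were tested; Ifng, Bhlhe40 (1.02), a factor that supports interferon-gamma output, and Id2 (0.44) were higher, Eomes was lower, and the median was 0.27. Id2, an inhibitor of E proteins, lost its call without ICI 1 or without ICI 2.

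**Figure D3:**
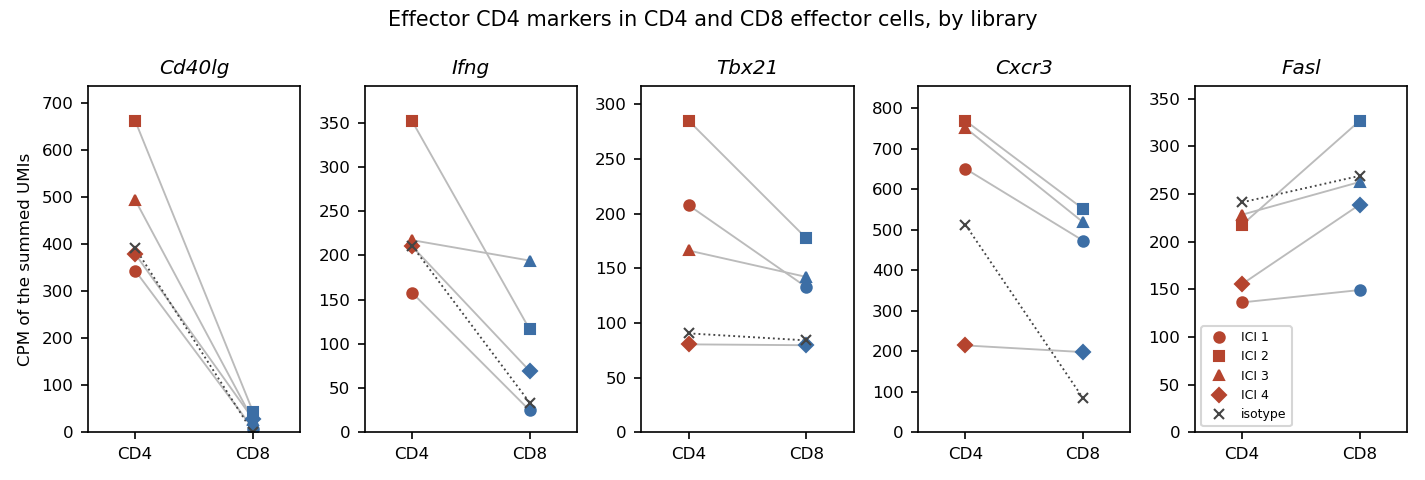
CPM of the 5 markers in CD4 and CD8 effector cells, by library, with lines joining the cells of a library; CD4 stands left of CD8. The Cd40lg values of the lineages lie apart; Tbx21 and Cxcr3 are higher in CD4 cells within each of the 4 ICI libraries, with ranges that overlap across libraries.

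Most cytokine transcripts were sparse, and of 20 cytokine genes 6 passed the filter on low counts. Ifng and Il2 were higher in CD4 cells. Tgfb1 and Il16 averaged 276.6 and 246.5 CPM in ICI CD4 cells, against 234.6 CPM for Ifng, and neither passed the test between lineages. With no filter 8 of 18 tested cytokine genes were higher and none was lower. Over all 13270 genes of that fit 285 were higher and 186 were lower. Areg was among the higher cytokine genes (log2 fold change 4.33), as were Il4, Il5 and Il13, given below. Csf2 (1, 0, 1 and 67 UMIs in CD4 cells of ICI 1 to ICI 4) and Il10 (0, 0, 2 and 28) were higher too. Most UMIs of both genes lay in ICI 4. Il2, the T cell growth factor, had 24.8, 37.1, 42.1 and 237.5 CPM in CD4 cells of ICI 1 to ICI 4, against 33.2, 24.95, 7.10 and 12.3 CPM in CD8 cells (log2 fold change 2.59, SE 0.40; edgeR, Benjamini-Hochberg adjusted p = 1.84e-05). The call rested on ICI 4, where 113 of 177 Il2 UMIs came from 1 cell; without ICI 4 the log2 fold change was 0.91 and the edgeR, Benjamini-Hochberg adjusted p was 0.349 (1.19e-15 to 0.955 over all alternatives, the highest by DESeq2). Tnf, encoding tumour necrosis factor, had a log2 fold change of 0.41 (SE 0.33; edgeR, Benjamini-Hochberg adjusted p = 0.641).

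Within the 560 ICI cells, cytokine and effector transcripts were described cell by cell, with no test, since cells of 1 library are not replicates. The 144 cells with an Ifng UMI (median 3623 UMIs) held Tbx21 in 52.8% and Gzmk, a granzyme, in 58.3%, against 29.3% and 28.4% of the 416 cells without (median 3012 UMIs). Cells with Ifng were deeper in each library, with medians of 2663, 3191, 3906 and 4584 UMIs in ICI 1 to ICI 4. Cells without had medians of 1430, 2804, 3523 and 4040 UMIs, and the part of depth was not tested. For Tbx21 the shares differed by library: 58.3%, 48.9%, 54.5% and 51.7% of cells with Ifng in ICI 1 to ICI 4, against 23.1%, 47.8%, 40.5% and 15.6% of cells without, so ICI 2 showed almost no difference. For Gzmk they were 50%, 63.8%, 68.2% and 41.4%, against 21.5%, 40.0%, 50% and 13.9%. Il2 went the other way: the 54 cells with an Il2 UMI (median 4215 UMIs) held Ifng in 14.8%, against 26.9% of the rest. By library these shares were 0%, 27.3%, 33.3% and 4.35% in ICI 1 to ICI 4, against 16.4%, 34.9%, 37.7% and 21.9%. ICI 4 held 23 of the 54 cells, and 8 cells held both cytokines (0, 3, 4 and 1 in ICI 1 to ICI 4). Cells with Il2 were not the deeper ones in ICI 1 or ICI 2 (medians of 1376 against 1488 and 2788 against 2992 UMIs). The 202 cells with Gzmk held Ccl5, a chemokine of effector cells, in 77.7%, against 34.9% of the other cells. Within ICI 1 to ICI 4 the shares were 72.5%, 81.8%, 82.1% and 65.5%, against 28.1%, 57.7%, 60.8% and 17.2%. Cells with Gzmk were also the deeper ones in each library, from a median of 3036 against 2947 UMIs in ICI 2 to 2582 against 1355 in ICI 1, and the part of depth in these shares was not tested.

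Most tested genes of the killer programme were lower in CD4 cells. Of 15 cytotoxic effector genes 13 were tested, 10 were lower and none was higher, with a median log2 fold change of -0.96; 5 of 12 tested genes were lower without ICI 4, 8 without ICI 2 and 5 by DESeq2. Prf1, encoding perforin, had 6.20, 4.64, 2.22 and 2.68 CPM in CD4 cells of ICI 1 to ICI 4, against 116.2, 152.5, 168.1 and 89.9 CPM in CD8 cells. The ranges were far apart (log2 fold change -5.09, SE 0.33; edgeR, Benjamini-Hochberg adjusted p = 1.91e-13). Eomes, the transcription factor paired with T-bet in CD8 and natural killer cells, was seen in CD4 cells as 2 UMIs, both in ICI 1; by counts it was 72.1-fold lower than in CD8 cells, with a 95% counting interval of 19.5 to 603.5. Without ICI 1 no Eomes UMI was left in ICI CD4 cells.

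The granzymes were retained to differing degrees. Gzmk had 239, 348, 412 and 102 CPM in CD4 cells of ICI 1 to ICI 4, against 523, 801, 987 and 446 CPM in CD8 cells, lower in each library (log2 fold change -1.49, SE 0.13). Gzmb had 15.5, 9.27, 0 and 84.5 CPM in CD4 cells and 8.30, 72.1, 307.8 and 566.1 CPM in CD8 cells (-3.16, SE 0.30; not called by DESeq2); ICI 1, with 5 UMIs in CD4 cells and 1 in CD8 cells, went the other way. Gzma had 871, 130, 33.3 and 109 CPM in CD4 cells and 158, 460, 455 and 658 CPM in CD8 cells (-1.52, SE 0.38); in ICI 1, the only library with more Gzma in CD4 cells, 146 of 281 UMIs came from 1 cell. Without ICI 1 the Gzma value was -2.60, and without ICI 2 its edgeR, Benjamini-Hochberg adjusted p was 0.0931 (1.16e-22 to 0.9999 over all alternatives). Nkg7, a granule membrane protein, was also lower (-1.51), as were the protease inhibitors Cst7 (-1.52), Serpinb9 (-0.96) and Serpinb6b (-0.84) and the protease Ctsw (-0.62); Serpinb9, Serpinb6b and Ctsw lost their calls without ICI 4, where Serpinb9 stood at -0.12.

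The killer lectin-like receptors tune killer cells through ligands on target cells. Of 10 genes 5 passed the filter on low counts (Klrc1, Klrk1, Klrd1, Klre1 and Klrc2), through high CD8 levels, and were lower in CD4 cells; without ICI 3 or without ICI 4 the count was 4. Klrg1 and Klrb1f fell under the filter and, in the fit without it, did not pass the test (log2 fold changes -0.76 and -1.73; edgeR, Benjamini-Hochberg adjusted p = 0.310 and 0.107). Klrg1 had 43.4, 16.2, 22.2 and 13.4 CPM in CD4 cells of ICI 1 to ICI 4, against 16.6, 44.4, 59.2 and 14.3 CPM in CD8 cells, and was higher in CD4 cells of ICI 1. Klra9 had 0 UMIs in CD4 cells and 3 in CD8 cells, and Klrb1c and Klra7 had none in either lineage. Klrc1, encoding the inhibitory receptor NKG2A, had 0, 34.8, 2.22 and 5.37 CPM in CD4 cells of ICI 1 to ICI 4, against 398.5, 551.6, 468.8 and 535.4 CPM in CD8 cells (-5.62, SE 0.27; edgeR, Benjamini-Hochberg adjusted p = 1.61e-16). Klrk1, encoding the activating receptor NKG2D, had 6.20, 69.5, 24.4 and 6.71 CPM in CD4 cells and 315.5, 307.7, 345.7 and 235 CPM in CD8 cells (-3.61, SE 0.26). For both receptors the CD4 and CD8 ranges lay apart, with ICI 2 the highest CD4 library; without ICI 2 the log2 fold changes were -7.12 for Klrc1 and -4.60 for Klrk1.

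Klrd1, encoding CD94, the partner chain of NKG2A, had 71.3, 41.7, 24.4 and 13.4 CPM in CD4 cells of ICI 1 to ICI 4, against 415, 338, 329 and 194 CPM in CD8 cells (log2 fold change -3.29, SE 0.19). Klrc2, encoding NKG2C, had 0 of 1950429 UMIs in CD4 cells and 58 of 1392826 in CD8 cells, at least 27.1-fold lower against a floor of 3 UMIs over the CD4 cells. Klre1 was lower as well (-3.39, and -4.00 without ICI 1). In the 10 isotype CD4 cells, 7 Klrc1 UMIs lay in 1 cell, so isotype levels of these receptors rest on single cells.

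These 5 receptor genes lie close together on chromosome 6 of GRCm38 (from 129559365, the start of Klre1, to 129682852, the end of Klrc1) and were lower in CD4 cells, so the stretch before each start listed in the RefSeq promoter table was read for the genes with the largest changes. The RUNX core (TGTGGT, or ACCACA on the other strand) and the T-box site (TCACACC, or GGTGTGA) were searched in the 200 bases before each listed start on both strands. Of the 12 genes with the largest decrease 7 had an entry in that table and 4 of these held the RUNX core in a window (Klrc1, Prf1, Cd160 and Klrk1), while 1 of 8 such genes among the 12 with the largest increase did (Asb2). Of the 5 receptors only Klrc1, Klrk1 and Klre1 were read, and Klre1 held neither motif. Klrd1 had no entry and Klrc2 was not among the genes searched, so the windows do not describe the 5 as a group. For the Prf1 window and the matching Asb2 window, the 20 bases after the listed start were not found in a GENCODE transcript of the gene. Across 27025 genes 12.8% held the RUNX core and 3.06% the T-box site in at least 1 window. A match is a description of letters and not a shown binding site. The windows of Klrc1, Klrk1 and Cd160 are shown as examples with a match, and that of Tnfsf8 as a gene that was higher in CD4 cells and has no match; their listed starts lie 3879 (Klrc1), 39 (Klrk1), 14830 (Cd160) and 224 (Tnfsf8) bases inside the full RefSeq span of the gene. Capitals mark the motif (RefSeq, GRCm38.p6, each read 5' to 3' on the gene's strand).
Klrc1 (chr6:129678974-129679173, minus strand): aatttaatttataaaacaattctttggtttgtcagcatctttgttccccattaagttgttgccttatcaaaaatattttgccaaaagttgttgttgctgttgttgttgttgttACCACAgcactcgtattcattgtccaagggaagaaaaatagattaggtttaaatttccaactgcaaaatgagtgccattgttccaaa
Klrk1 (chr6:129623865-129624064, minus strand): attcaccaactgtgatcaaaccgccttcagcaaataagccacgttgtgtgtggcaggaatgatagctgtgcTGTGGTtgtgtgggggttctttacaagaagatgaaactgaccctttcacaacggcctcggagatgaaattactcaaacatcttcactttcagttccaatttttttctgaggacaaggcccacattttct
Cd160 (chr3:96814522-96814721, minus strand): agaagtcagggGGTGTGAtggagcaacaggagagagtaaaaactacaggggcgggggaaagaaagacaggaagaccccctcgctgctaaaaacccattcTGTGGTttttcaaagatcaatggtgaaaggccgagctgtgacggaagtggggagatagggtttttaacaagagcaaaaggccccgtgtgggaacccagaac
Tnfsf8 (chr4:63861285-63861484, minus strand): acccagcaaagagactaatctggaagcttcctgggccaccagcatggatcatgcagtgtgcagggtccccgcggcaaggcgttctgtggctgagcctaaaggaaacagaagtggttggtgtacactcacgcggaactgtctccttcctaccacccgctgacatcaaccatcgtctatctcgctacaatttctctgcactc
The capitals are the RUNX core in Klrc1 and Klrk1, and the T-box site followed by the RUNX core in Cd160, where the single T-box match among these genes was found.

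Chemokine transcripts went both ways. Of 6 chemokines 3 passed the filter on low counts (Ccl5, Ccl4 and Xcl1) and were lower in CD4 cells; with no filter 4 of 6 were lower, Ccl3 (1, 0, 0 and 2 UMIs in CD4 cells of ICI 1 to ICI 4, against 0, 7, 11 and 2 in CD8 cells) being the fourth, and 1 was higher. Ccl5, a chemokine that attracts T cells, had 3896, 2647, 2548 and 872.1 CPM in CD4 cells of ICI 1 to ICI 4, against 7323, 11940, 15940 and 8019 CPM in CD8 cells (log2 fold change -2.31, SE 0.19; edgeR, Benjamini-Hochberg adjusted p = 9.67e-11). The ranges did not overlap, and ICI 4 was the lowest CD4 library. Ccl4 (-4.75, and between -4.02 and -5.35 without ICI 3 or ICI 4) and Xcl1 (-1.24), which attracts cross-presenting dendritic cells, were lower too. The higher one was Ccl1, a ligand of CCR8, with 27, 1, 2 and 227 UMIs in CD4 cells of ICI 1 to ICI 4, against 0, 0, 0 and 1 in CD8 cells; 27 of its ICI 1 UMIs and 146 of its ICI 4 UMIs lay in 1 cell each. Cxcl10 had a log2 fold change of 1.33 with no filter and did not pass the test (edgeR, Benjamini-Hochberg adjusted p = 0.0855).

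Of 26 chemokine and migration receptors 20 were tested, 4 were higher and 3 were lower in CD4 cells. Ccr4 (log2 fold change 2.95), Ccr8 (1.39), Cd44 (1.03), which binds hyaluronan, and Cxcr4 (1.06) were higher; Cxcr4 lost its call without ICI 3 or without ICI 4. Itgae (-3.54, and -4.76 without ICI 4), the integrin chain of intraepithelial CD8 cells, and Selplg (-0.79), the selectin ligand, were among the lower members. Cxcr6, a receptor of tissue T cells, had 1835, 2083, 2171 and 389.1 CPM in CD4 cells of ICI 1 to ICI 4 and 1270, 1838, 1849 and 341.3 CPM in CD8 cells, with no difference past the test (0.20, SE 0.11; edgeR, Benjamini-Hochberg adjusted p = 0.369). It was low in both lineages of ICI 4.

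The targets of the 2 antibodies went in opposite directions between the lineages. Pdcd1, encoding PD-1, had 43.4, 118.2, 88.7 and 300.5 CPM in CD4 cells of ICI 1 to ICI 4, against 107.9, 166.3, 137.3 and 705.1 CPM in CD8 cells, lower in each library (log2 fold change -0.97, SE 0.15; edgeR, Benjamini-Hochberg adjusted p = 3.43e-05). Ctla4 had 52.7, 81.1, 108.7 and 484.3 CPM in CD4 cells and 16.6, 41.6, 45.0 and 292.2 CPM in CD8 cells, higher in each library (0.89, SE 0.17; edgeR, Benjamini-Hochberg adjusted p = 0.000492), a call that DESeq2 did not make. ICI 4 was the highest library for both genes in both lineages. Lag3 (-2.32), Tigit (-1.06, and -1.69 without ICI 4) and Cd160 (-4.87, and -6.34 without ICI 3), further inhibitory receptors, were lower in CD4 cells, so that of 9 tested inhibitory receptors 1 was higher and 4 were lower.

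Genes that respond to T cell receptor signals were more often higher in CD4 cells: of 16 tested of 21, 10 were higher and 2, Nr4a2 (log2 fold change -0.96, and -1.80 without ICI 4) and Tox (-0.94), were lower, with a median of 0.74. Nr4a1, an immediate early gene of receptor signalling, had 155, 401, 353 and 979 CPM in CD4 cells of ICI 1 to ICI 4, against 8.30, 141, 149 and 398 CPM in CD8 cells (1.38, SE 0.15; edgeR, Benjamini-Hochberg adjusted p = 4.14e-08). Junb (1.46) and Fos (2.07), subunits of AP-1, were higher as well. These genes move with tissue digestion too: of 18 dissociation and stress genes 16 were tested and 10 were higher in CD4 cells (median 0.76), 4 of them (Fos, Junb, Egr1 and Nr4a1) shared by both lists, and the part of handling in the result was not tested. Leaving out a library gave 7 higher genes of the receptor-signal list without ICI 1, ICI 2 or ICI 4, and 3 by DESeq2. Egr1, Nfatc2, Myc, Rel, Nfkbia and Tnfaip3 each lost the call without at least 1 library, as did Tox without ICI 1, ICI 2 or ICI 3.

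Other groups differed little between the lineages. None of 8 tested proliferation genes and none of 12 class I presentation genes passed the test, at medians of 0.07 and -0.12. Of 20 tested interferon-stimulated genes 1 was lower (Ly6a, log2 fold change -1.08) and none was higher. Among cytokine receptors Il2ra (1.85), the high-affinity interleukin-2 receptor chain, and Il7r (0.96) were higher of 18 tested.

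Markers of other CD4 cells were then summed in the CD4 effector cells. Of 11 regulatory T cell markers 7 were tested and 5 were higher in CD4 than CD8 cells (2 by DESeq2); the list summed to 700.5, 516.8, 534.4 and 2265 CPM in CD4 cells of ICI 1 to ICI 4, against 539.7, 219, 198.9 and 1083 CPM in CD8 cells, and to 1720 CPM in isotype CD4 cells. Foxp3, its defining gene, was seen in 1, 2, 1 and 10 cells of ICI 1 to ICI 4, 14 of 560 in all, and in none of the 10 isotype cells. The list of 10 naive T cell markers summed to 1327, 732.3, 689.7 and 2282 CPM in CD4 cells of ICI 1 to ICI 4 and 2686 CPM in isotype CD4 cells, against 1511, 554.4, 535.1, 2060 and 1716 CPM in CD8 cells of the same libraries. It was highest in isotype and ICI 4, where it lay above the list of the 5 effector markers and Cd4 (1492 CPM in ICI 4 and 1961 CPM in isotype). The lists differ in size and members, so the larger sum does not show which state prevailed in the cells. Red cell transcripts summed to 501 UMIs (672.2 CPM) in CD4 cells of ICI 4, 3 UMIs in isotype and 0 in ICI 1 to ICI 3. The part of these cells or transcripts in the differences between libraries was not tested. The natural killer list summed to 27.9, 23.2, 22.2 and 1.34 CPM in CD4 cells of ICI 1 to ICI 4 and to 149.4, 196.8, 189.4 and 98.1 CPM in CD8 cells. In isotype this list summed to 120.7 CPM in CD4 cells, which is 4 UMIs, and to 403.8 CPM in CD8 cells, above each ICI library in both lineages. The gamma-delta T cell list summed to 31, 48.7, 15.5 and 9.39 CPM in CD4 cells. The type 17 cytokine Il17a, the target named in the study's title, was seen as 1 UMI in ICI 4 and nowhere else in these cells.

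Type 2 helper genes were higher in CD4 than CD8 cells, while the type 2 cytokines themselves were carried by few cells of 1 library. The list of 8 genes summed to 406, 317.5, 328.2 and 1892 CPM in CD4 cells of ICI 1 to ICI 4, against 174.4, 110.9, 149.2 and 120.6 CPM in CD8 cells, and its 3 tested members (Gata3, Ccr4 and Ccr8) were higher in CD4 cells (1 by DESeq2), Ccr4 in each library and Gata3 and Ccr8 in 3 of 4. In ICI 4, 994 UMIs of Il4, Il5 and Il13 lay in 20 CD4 effector cells, and 8 cells (5.30% of 151) with both Il5 and Il13 held 913 of them (91.9%). ICI 1 to ICI 3 held 6, 4 and 3 UMIs of the 3 genes, and isotype held 0. All 8 cells held Cd3e, a T cell receptor subunit, 7 held Gata3, the type 2 transcription factor, 7 held Il1rl1, the receptor of interleukin-33, and 7 held Cd40lg, while 2 held Ifng and 1 held Tbx21; their median was 5354 UMIs.

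ICI 4 also differed from ICI 1 to ICI 3 in further genes of these cells. Ramp3, a partner of the calcitonin receptor-like receptor, had 15.5, 55.6, 44.4 and 633.2 CPM in ICI 1 to ICI 4, against 633.7 CPM in isotype. Ccr7, which guides cells to lymph nodes, had 52.7, 4.64, 15.5 and 399.8 CPM, against 392.3 CPM in isotype, and Cxcr6 had the levels given above, against 392.3 CPM in isotype. On these 3 genes ICI 4 lay next to isotype and away from the other ICI libraries. On other genes ICI 4 lay further from isotype than the other ICI libraries did. Tnfsf8 had 287.1 CPM in ICI 4 against 30.2 CPM in isotype, Icos 1430 against 724.2, and Pdcd1 300.5 against 90.5. Phase calls of the authors put 29.9%, 37.2% and 38.1% of CD4 effector cells of ICI 1 to ICI 3 in S phase, against 3.97% in ICI 4 and 0 of 10 cells in isotype; no cycling is read from these calls alone.

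ICI and isotype CD4 effector cells were compared across 7734 genes, with 4 ICI sums against 1 isotype sum of 10 cells and 33140 UMIs. No gene passed (0%) by edgeR's quasi-likelihood test with Benjamini-Hochberg adjustment, 495 had an unadjusted p under 0.05, and DESeq2 called 1 (Prnp, prion protein, log2 fold change -5.11, DESeq2 adjusted p = 0.0228, with 9 isotype UMIs). Without ICI 4, 3 genes were lower in ICI: Ramp3 (-3.82), Socs3 (-4.76), a feedback inhibitor of cytokine signalling, and AY036118 (-3.02). Those calls set 1 isotype library against the 3 that remained after the library nearest to it on Ramp3 was left out; with ICI 4 in, Ramp3 had a log2 fold change of -1.30 and an edgeR, Benjamini-Hochberg adjusted p of 0.810. In data simulated for this design the test recovered 2% of 4-fold changes and 68% of 16-fold changes, so a 4-fold change was rarely detectable at this depth. The fit took the spread of the single isotype library to be that seen among ICI libraries.

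The marker levels of the isotype cells therefore stand as values. Cd40lg had a log2 fold change of 0.53 (SE 0.57), Ifng 0.43 (SE 0.66), Tbx21 1.25 (SE 0.88), Cxcr3 0.44 (SE 0.68) and Fasl -0.11 (SE 0.58) in ICI over isotype, while the median of all genes was 0.55. Cd40lg was 344.1, 662.8, 494.5 and 379.7 CPM in ICI 1 to ICI 4 against 392.3 CPM in isotype, inside the ICI range. Maf lay above isotype in all 4 ICI libraries (207.7 to 241.7 CPM against 60.4 CPM, which is 2 UMIs; log2 fold change 2.12, SE 0.68, unadjusted p = 0.0120, edgeR, Benjamini-Hochberg adjusted p = 0.678).

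Whether the treatment difference itself was unlike in CD4 and CD8 effector cells was tested as an interaction across 8033 genes. Of these 1 gene passed (0.0124%): Tg, encoding thyroglobulin, the storage protein of thyroid follicles (log2 difference of fold changes 8.18, SE 1.53; edgeR, Benjamini-Hochberg adjusted p = 0.0250). Tg had 0, 4.64, 4.44 and 1.34 CPM in CD4 cells of ICI 1 to ICI 4 against 30.2 CPM (1 UMI) in isotype CD4 cells, and 0, 0, 2.37 and 0 CPM in ICI CD8 cells against 2305 CPM in isotype CD8 cells, where all 137 UMIs lay in 1 cell.

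The helper ligand, lastly, was set beside the same gene in other CD4 cells of the data, as levels with no test, since the clusters were drawn from these genes. Cells with Cd4 and without Cd8a or Cd8b1 UMIs numbered 879 in cluster 0 and 438 in cluster 4. In cluster 0, Cd40lg had 102.8, 403.2, 347.7 and 50.1 CPM in ICI 1 to ICI 4 and 66.8 CPM in isotype, below the CD4 effector cells of the same library in all 5. Ifng had 1.84, 81.6, 41.9 and 0 CPM there and 0 CPM in isotype, also below. In cluster 4, Foxp3 had 219.7, 301.9, 397.5 and 339.4 CPM in ICI 1 to ICI 4 and 144.5 CPM in isotype, against 2.22 to 32.2 CPM in ICI and 0 CPM in isotype effector cells. Cluster 0 itself was uneven between libraries: Cxcr6 had 1704 and 1646 CPM in its ICI 2 and ICI 3 cells, and at most 34.9 CPM in ICI 1, ICI 4 and isotype.

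**Figure D4:**
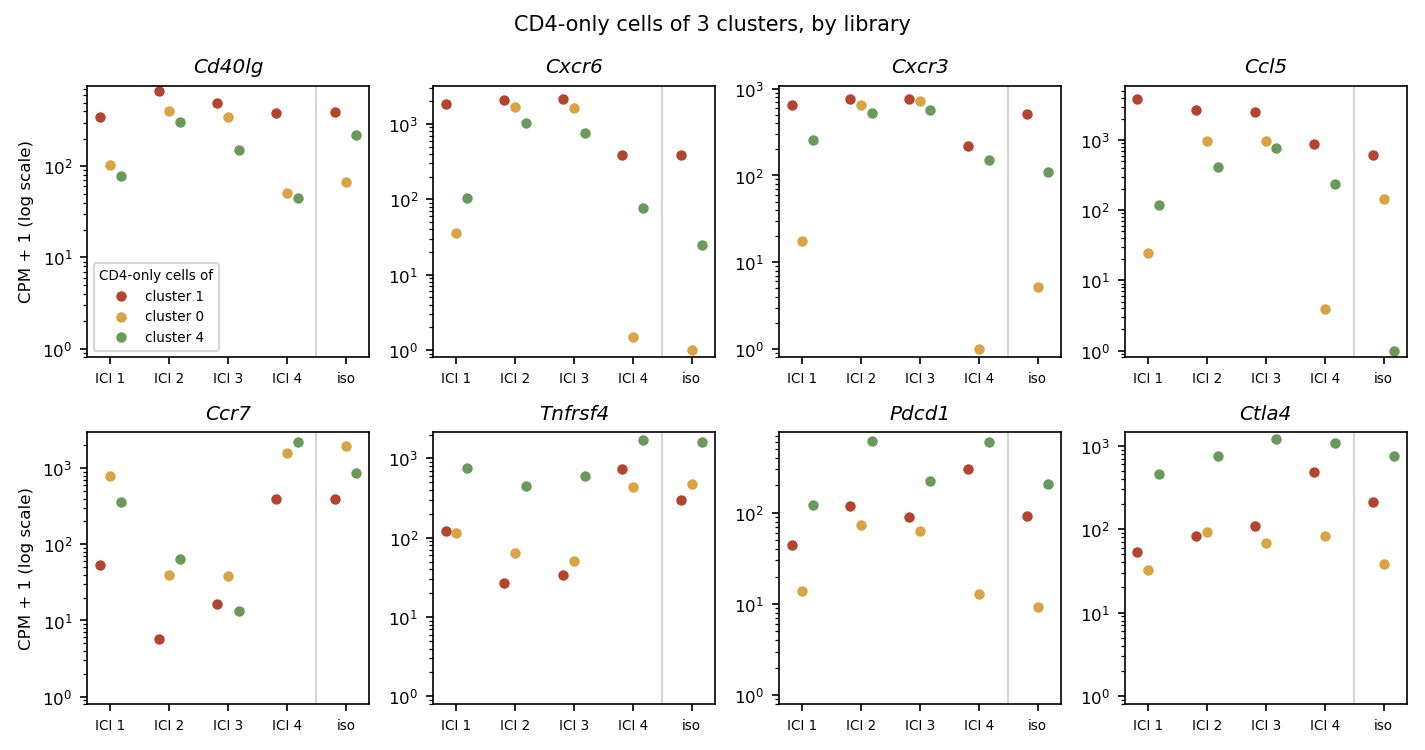
CPM plus 1, on a log scale, of 8 genes in the CD4-only cells of cluster 1 (the CD4 effector cells), cluster 0 and cluster 4, by library, with ICI left of isotype. Cd40lg is highest in cluster 1 in all 5 libraries, Ctla4 is highest in cluster 4 in all 5, and Cxcr6 in cluster 0 separates ICI 2 and ICI 3 from the rest.

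Receptor segments also differed between the lineages and are named after their values were seen; segments share sequence, so reads can be split between near-identical copies. Trav13-1 was higher (log2 fold change 3.28, SE 0.36; edgeR, Benjamini-Hochberg adjusted p = 4.27e-08), seen in 7.56%, 6.98%, 13.4% and 8.09% of CD4 cells with any Trav segment in ICI 1 to ICI 4, against 0%, 3.30%, 3.23% and 0% of CD8 cells. Trbv1 was higher (2.06), seen in 15.6%, 13.1%, 8.77% and 12.4% of CD4 cells with any Trbv segment, against 4.76%, 6%, 2.97% and 3.53% of CD8 cells. Trbv17 was lower (-3.41), seen in 4.10%, 0.769%, 4.39% and 0% of CD4 cells against 14.3%, 13%, 8.91% and 5.88% of CD8 cells. Trbv13-2, a segment seen in many cells of both lineages, was found in 30.3%, 23.1%, 29.0% and 24.1% of CD4 cells against 33.3%, 16%, 31.7% and 30.6% of CD8 cells, with overlapping ranges.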

How the data were processed

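Whole-number UMI counts of 18767 genes in 10275 cells were deposited by the authors. Per the submitters' processing notes, the tools were Cell Ranger and Seurat and the build was mm10. Per the file headers, the deposited table of cells holds 17 clusters (resolution 0.4), a mitochondrial percent, and cell cycle score values with the phase calls made from them. Its UMI totals equalled the summed counts in all 10275 cells. Whether doublets were removed is not given in the sources used here.

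Counts were summed per library for CD4 and for CD8 effector cells, with at least 10 cells per sum. edgeR 4.0.16 in R 4.3.3 fitted quasi-likelihood models with TMM scaling, filterByExpr (minimum count of 10), Benjamini-Hochberg adjustment and a threshold of 0.05. CPM values are the UMIs of a gene scaled to a common total over each sum. CD4 and CD8 sums of a library come from the same pooled animals, so the library was a block. Deviations from the group means correlated between the CD4 and CD8 sums of a library at 0.471, 0.338, 0.326 and 0.709 in ICI 1 to ICI 4. The highest such correlation with another library was -0.101, 0.304, 0.287 and -0.268, so ICI 2 and ICI 3 lay only slightly above it. Whether ICI 2 and ICI 3 are independent libraries was not tested. The test was checked on simulated data with 5971 genes for CD4 against CD8 cells (90% of genes changed 4-fold recovered, 6 false calls of 174) and 7735 genes for ICI against isotype (2%, 5 false calls of 60). Alternatives were DESeq2 1.42.0, RLE scaling, other filters, gates and depths, ICI 2 and ICI 3 summed, and each ICI library left out.

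Named genes were the 12 largest changes in each direction and fixed markers, cytokines, receptors and list members. Cells and gene lists were chosen with earlier results of these data known. The counts of each list without each library, shares of co-detected genes by library, and some genes under the filter or in receptor segments, were added after seeing the data. One gene of the chemokine and migration receptor list is not reported here by name.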

Additional observations from a re-analysis of the deposited data

Results flagged for a closer look

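Of 124 values of CD4 effector cells that were compared over the 4 ICI libraries, 35 had 1 library far from the other 3. Far means a gap to the nearest other, divided by the range, above Dixon's 95% critical value. The rate of about 1 in 20 by chance holds for independent, normally distributed values. These values are partly sparse and partly chosen, so their count has no chance rate to be set against. Eomes, Il21, Il17a and Cxcr5 had UMIs in CD4 cells of 1 ICI library only, which fixes their flag in advance. ICI 4 was the far library for 29 of the 35.

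ICI 4 was far above the others for surface molecules and ligands: Tnfsf8 at 287.1 CPM (24.4 to 65.1 in the others), Tnfrsf4 at 731.2 (25.5 to 120.9), Tnfsf11 at 322 (48.8 to 74.4), Icos at 1430, Tnfrsf9 at 63.1, Tnfrsf18 at 540.7, Cd27 at 161, Ctla4 at 484.3, Lag3 at 24.1 and Ifngr1 at 1434 CPM. The migration and chemokine genes were Ccr7 at 399.8, Ramp3 at 633.2 and Cxcl10 at 76.5 CPM. The cytokine genes were Il2 at 237.5, Il21 at 22.8, Il10 at 37.6, Csf2 at 89.9, Il17a at 1.34 and Tgfb1 at 554.1 CPM, where Il17a is 1 UMI. Regulators and stress genes were Foxp3 at 32.2, Fos at 256.2, Jund at 1323, Nr4a2 at 179.8, Hspa1a at 642.6, Kctd12 at 222.7 and Serpinb6b at 138.2 CPM.

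ICI 4 was far below the others for Nkg7 at 359.6 CPM (889.6 to 995.7), Ms4a4b at 818.4 CPM (1969 to 2111) and the share of all cells, 3.01% (10.1% to 11.2%). Its summed CD4 depth was the highest of the libraries, 745366 UMIs, and its cells were 3.97% S phase by the authors' calls; the part of either in these values was not tested.

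ICI 1 was far above the others for Gzma at 871 CPM, with 146 of 281 UMIs in 1 cell, for Nfatc2 at 145.7 CPM, for Eomes at 6.20 CPM (2 UMIs) and for Cxcr5 at 3.10 CPM (1 UMI), and below them for Egr1 at 18.6 CPM (146 to 168.5). ICI 2 was above the others for Klrc1 at 34.8 CPM. In the test of treatment effects between CD4 and CD8 effector cells, Tg passed at 8.18 on the log2 scale, with 137 isotype CD8 UMIs in 1 cell.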

How the results depend on the processing

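Of the 330 genes called between CD4 and CD8 effector cells (188 higher and 142 lower), RLE scaling gave 325 and DESeq2 gave 111, all 111 among the 330. With cells thinned to 1000 UMIs 82 genes were called of 2012 tested. Leaving out 1 ICI library gave 237 to 318 calls, and without ICI 4 the split was 152 higher and 166 lower. With ICI 2 and ICI 3 summed 308 genes were called of 7126 tested, 273 of them among the 330. With no replicate block 30 genes were called (9 higher and 21 lower), so the counts rest on pairing CD4 and CD8 sums within a library. For ICI against isotype, leaving out 1 library gave 0 to 3 calls and DESeq2 gave 1. For the difference of treatment effects, where 1 gene was called, no filter gave 9, DESeq2 gave 0 and leaving out 1 library gave 0 to 11. No paired analysis was possible because the isotype group has 1 library, for ICI against isotype.

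Of 109 single-gene results, 80 past the threshold, 42 kept direction and side under every alternative run for them, and RLE scaling changed none. The 42 include results that were not past the threshold and stayed so, and are thus no count of calls that held. Calls were lost most often with no block (59), with DESeq2 (28) and without ICI 4 (13). Direction turned in 5 cases: Cxcr6 to -0.0057 with 2 or more coreceptor UMIs, Runx3 to 0.017 without ICI 3 (lowest -0.12 when a library was left out) and 0.13 with thinned cells, and Fasl in ICI against isotype to 0.0087 without ICI 1 (lowest -0.27) and 0.83 with thinned cells; the cause was not tested. Both shares were higher in ICI under each alternative, at differences of 3.96 to 9.76 and 17.6 to 25.3 percentage points; no setting could give an exact p under 0.2, so the p says nothing of stability. Removing cells with Foxp3, Trdc or Ncr1 was not run for ICI against isotype, where too few isotype cells were left. A minimum of 20 cells was not run for any comparison.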
